A study of Homo sapiens with 8 samples.

Results

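The insulin-like growth factor (IGF) genes described here are IGF2, the receptors IGF1R and IGF2R, the adaptor IRS1 and the binding proteins IGFBP2, IGFBP3, IGFBP4, IGFBP5, IGFBP6 and IGFBP7, 10 of the 23686 gene symbols listed for each library. They were chosen by name, with no measured value in the rule, but with earlier results of these data known. A filter on low counts kept 8 of the 10 among 14249 tested genes, and IGF2 and IGFBP2 fell below it. RNA sequencing covered MDA-MB-231 and HS578T, human breast cancer lines of the triple-negative class that are labelled epithelial, from mammary gland. The 4 groups were MDA-MB-231 siGPX1, MDA-MB-231 control, HS578T siGPX1 and HS578T control, with 2 libraries in each. The siGPX1 libraries come from cells depleted of GPX1, an enzyme that reduces hydrogen peroxide with glutathione. Their titles carry an siRNA prefix, while another label gives a knockout genotype, and neither the type of control nor the siRNA, its dose or its time was stated. The title of the series concerns metastasis, and the question here is which IGF transcripts differ once GPX1 is depleted.

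IGF1 and IGF2 are secreted peptides that activate IGF1R, a receptor tyrosine kinase, which then phosphorylates adaptors such as IRS1 and so engages PI3 kinase, AKT and mTOR. IGF2R carries IGF2 and enzymes tagged with mannose 6-phosphate to lysosomes and does not signal as a kinase. The IGFBPs bind IGFs outside the cell, which keeps them from the receptor until proteases cut the binding protein, and several of them also act without IGF; IGFBP7 binds IGFs only weakly.

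GPX1, the check of the labels, had 108 and 95 estimated counts in MDA-MB-231 siGPX1, 2944 and 3223 in MDA-MB-231 control, 42 and 42 in HS578T siGPX1 and 1117 and 1074 in HS578T control. Library totals lay between 12905808 and 14216365 estimated counts, and 15584 to 15817 genes had a count. No label states that the 2 libraries of a group were grown separately. A p-value here rests on the spread between libraries of a group, estimated jointly over all groups, and that spread may be technical. Among cell type markers, EPCAM was at 31.8 to 39.5 TPM in MDA-MB-231 and at or below 0.22 TPM in HS578T, and the epithelial cadherin CDH1 did not exceed 1.11 TPM in any library. VIM, a mesenchymal filament, was at 2134 TPM or more throughout, and 6 or 7 of 10 mesenchymal and fibroblast markers reached 1 TPM in MDA-MB-231, against 10 of 10 in HS578T. Of 5 leukocyte markers, 2 reached 1 TPM in every library, CD68 at 61.3 to 166 TPM and CD14 at 6.23 to 12.98 TPM, while PTPRC stayed at or below 0.19 TPM. Of 3 endothelial markers PECAM1 did, at 1.37 to 5.34 TPM, while CDH5 stayed at or below 0.04 TPM. The epithelial keratin KRT14 was at 36.7 to 48.5 TPM in HS578T and at or below 0.11 TPM in MDA-MB-231. The adipocyte marker FABP4 was at 28.7 to 41.4 TPM in HS578T and at 0 in MDA-MB-231. Of the receptors that define other breast cancer classes, ESR1 stayed at or below 0.09 TPM and PGR at or below 1.02 TPM. ERBB2 transcript was at 30.9 to 45.0 TPM throughout.

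After depletion, the receptor gene IGF1R rose in both lines, by 1.30-fold in MDA-MB-231 and by 3.14-fold in HS578T. IGF2R also rose in both, and IRS1 fell in both, to a level 1.52-fold lower in MDA-MB-231 and 1.47-fold lower in HS578T. Of the binding proteins, IGFBP4 fell in MDA-MB-231, and in HS578T IGFBP3 fell while IGFBP6 and IGFBP7 rose. The IGFBP6 call was lost under 11 of 18 alternative settings. In MDA-MB-231, 4 of the 7 tested members with counts there passed edgeR's quasi-likelihood test at a Benjamini-Hochberg adjusted p under 0.05, 2 higher and 2 lower, where 20.7% of all tested genes were called higher and 21.9% lower. In HS578T, 6 of 8 passed, 4 higher and 2 lower, where the shares of all tested genes were 28.6% higher and 22.1% lower. The members' median log2 change was -0.04 in MDA-MB-231 and 0.08 in HS578T, beside 0.00 and 0.04 over all tested genes.

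**Figure D1:**
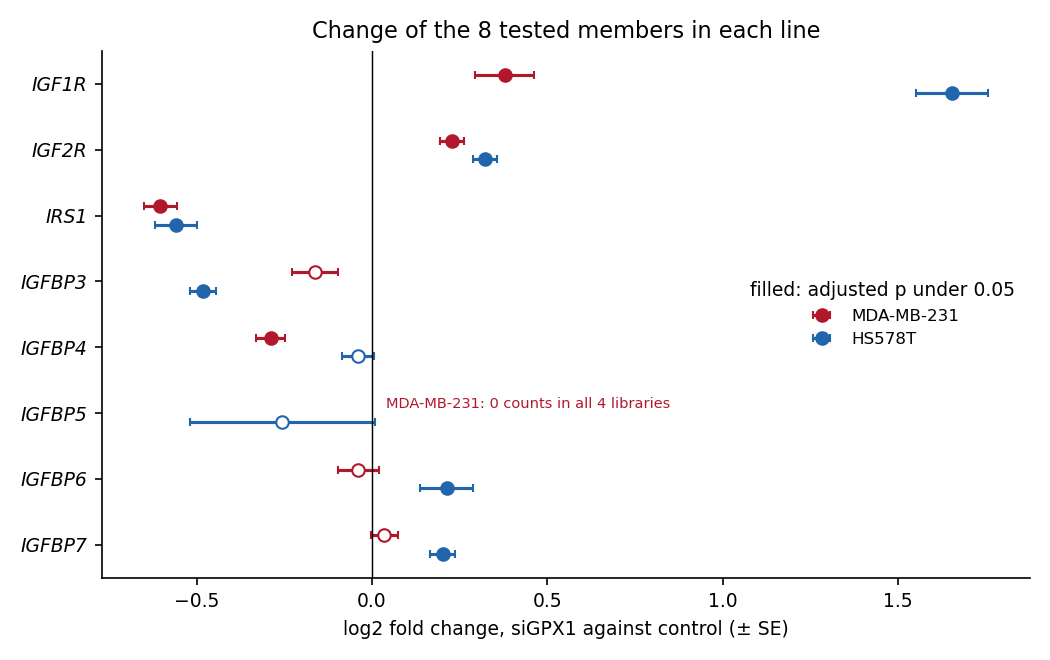
The log2 fold change of siGPX1 against control (horizontal axis, with its standard error) is drawn for each tested gene in MDA-MB-231 (red, upper) and HS578T (blue, lower), filled where the adjusted p was under 0.05. IGF1R in HS578T lies far to the right at 1.65, IRS1 is at -0.60 and -0.56, and IGFBP5 has no value in MDA-MB-231, where it had 0 counts.

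The 3′ UTRs of the members were searched for GGGCATC and GGCATCA, 7-base sequences that an earlier look at these same data had tied to falling transcripts, so the search is a description. Joined, they give GGGCATCA, which 5 of 6 annotated GPX1 transcripts contain. Of the members' longest annotated 3′ UTRs (GENCODE 29, GRCh38, sense strand), 4 held 1 match each, shown 5′ to 3′ in capitals with the flanking bases.
IGF1R: gactataccaaGGCATCAtctatccacag
IRS1: gttttgatggtGGCATCAaactaccgatt
IGFBP3: ccacattcagaGGCATCAcaagtaatggc
IGFBP4: cctactcccctGGGCATCttctggcttga
They lie at chr15:98961468-98961496 on the plus strand, chr2:226733803-226733831 on the minus strand, chr7:45913035-45913063 on the minus strand and chr17:40457599-40457627 on the plus strand. Of tested genes with a 3′ UTR within 25% of the same length, 39.2% held a match for IGF1R, 30.8% for IRS1, 10.4% for IGFBP3 and 9.28% for IGFBP4, against 13.99% of the 13127 tested genes with an annotated 3′ UTR. Among genes with a match, 43.8% fell in MDA-MB-231 and 43.4% in HS578T, and among genes without one 19.3% and 19.6% fell. Since the sequences were picked from these same data for falling transcripts, that difference is no separate support. The shares were also not matched for 3′ UTR length. IRS1 fell in both lines, while IGFBP4 was called lower only in MDA-MB-231 and IGFBP3 only in HS578T. IGF1R rose in both lines with the same 7 bases as IRS1 and IGFBP3, and the other members held no match. A match does not show that the sequence is used.

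The IGF ligands were close to undetected. IGF2 had 8 and 8 estimated counts in MDA-MB-231 siGPX1 and 2 and 6 in MDA-MB-231 control, with 0 and 0 in HS578T siGPX1 and 2 and 1 in HS578T control. These are at most 0.31 TPM. With no filter on low counts, edgeR's quasi-likelihood test gave IGF2 an adjusted p of 0.299 in MDA-MB-231 and 0.19 in HS578T, so no difference was detectable at this depth. IGF1 and INS, the insulin gene, had 0 counts in every library, as did the read-through locus INS-IGF2.

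IGF1R was measured at 8.75 and 8.41 TPM in MDA-MB-231 siGPX1, against 6.38 and 6.74 TPM in MDA-MB-231 control. In HS578T it stood at 8.89 and 7.27 TPM in siGPX1 and at 2.84 and 2.48 TPM in control. The groups did not overlap in either line, and the siGPX1 libraries of both lines reached similar levels while the controls differed. On the TMM-scaled count scale (CPM, counts scaled to a common library size), used for every fold change here, IGF1R averaged 36.4 ± 0.971 in MDA-MB-231 siGPX1 and 28.0 ± 1.29 in control (SD, n = 2 each). The log2 change was 0.38 ± 0.08 (SE), with an adjusted p of 0.00174 by edgeR's quasi-likelihood test. In HS578T the means were 39.2 ± 5.21 CPM in siGPX1 and 12.4 ± 1.16 CPM in control (SD, n = 2 each), a log2 change of 1.65 ± 0.10 (adjusted p = 2.2e-09, edgeR). The HS578T siGPX1 libraries were the most spread of the 4 groups, at 42.8 and 35.5 CPM. This was not particular to IGF1R: across tested genes, the mean chi-square per gene between the 2 libraries was 4.05 in HS578T siGPX1. It was 1.96 in HS578T control, 1.71 in MDA-MB-231 control and 1.35 in MDA-MB-231 siGPX1, while the fit shared each gene's spread over all groups. The MDA-MB-231 change minus the HS578T change was -1.27 ± 0.13 on the log2 scale (interaction, adjusted p = 1.14e-05, edgeR).

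INSR, the insulin receptor and the closest relative of IGF1R, is no member but had a pattern of its own. It had 546 and 534 estimated counts in MDA-MB-231 siGPX1 and 444 and 434 in MDA-MB-231 control, and 0 in all 4 HS578T libraries. In MDA-MB-231 its log2 change was 0.38 ± 0.07 (adjusted p = 0.000733, edgeR), a call lost with limma on log2(TPM + 0.1) (adjusted p = 0.137), and its TPM was 1.21 to 1.35 times that of IGF1R in all 4 libraries. INSR was at least 249-fold higher in control MDA-MB-231 than in control HS578T, taking 3 counts over the HS578T group as the limit.

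IGF2R, the mannose 6-phosphate receptor that clears IGF2, was the most abundant of the receptors. It had 105 and 102 TPM in MDA-MB-231 siGPX1, against 90.0 and 85.8 TPM in control, and 121 and 118 TPM in HS578T siGPX1, against 101 and 97.8 TPM in control. Both siGPX1 libraries lay above both controls in each line. The log2 change was 0.23 ± 0.04 in MDA-MB-231 (adjusted p = 7.76e-05) and 0.32 ± 0.04 in HS578T (adjusted p = 1.42e-06, edgeR's quasi-likelihood test). The difference between the lines was -0.09 ± 0.05, did not pass (adjusted p = 0.226, edgeR) and changed sign under 3 of 16 alternative settings. The ratio of IGF2R to IGF1R in TPM was 11.97 and 12.16 in MDA-MB-231 siGPX1 and 14.1 and 12.7 in control. In HS578T it was 13.6 and 16.2 in siGPX1 and 35.4 and 39.4 in control.

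IRS1, which couples the receptor to PI3 kinase, was at 29.3 and 27.6 TPM in MDA-MB-231 siGPX1, against 43.0 and 43.0 TPM in control. In HS578T siGPX1 it was at 9.61 and 9.60 TPM, against 14.9 and 14.4 TPM in control. Replicates lay close together and the groups were well apart. IRS1 averaged 93.7 ± 3.84 CPM in MDA-MB-231 siGPX1 and 142 ± 1.09 CPM in control, and 36.2 ± 0.293 CPM in HS578T siGPX1 and 53.3 ± 1.05 CPM in control (SD, n = 2 each). The log2 change was -0.60 ± 0.05 in MDA-MB-231 (adjusted p = 4.32e-08) and -0.56 ± 0.06 in HS578T (adjusted p = 1.33e-06, edgeR), and the interaction was -0.04 ± 0.08 (adjusted p = 0.769, edgeR), with its sign changed under 8 of 16 alternative settings. IRS1 was the member with the smallest p in MDA-MB-231, and IGF1R in HS578T.

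**Figure D2:**
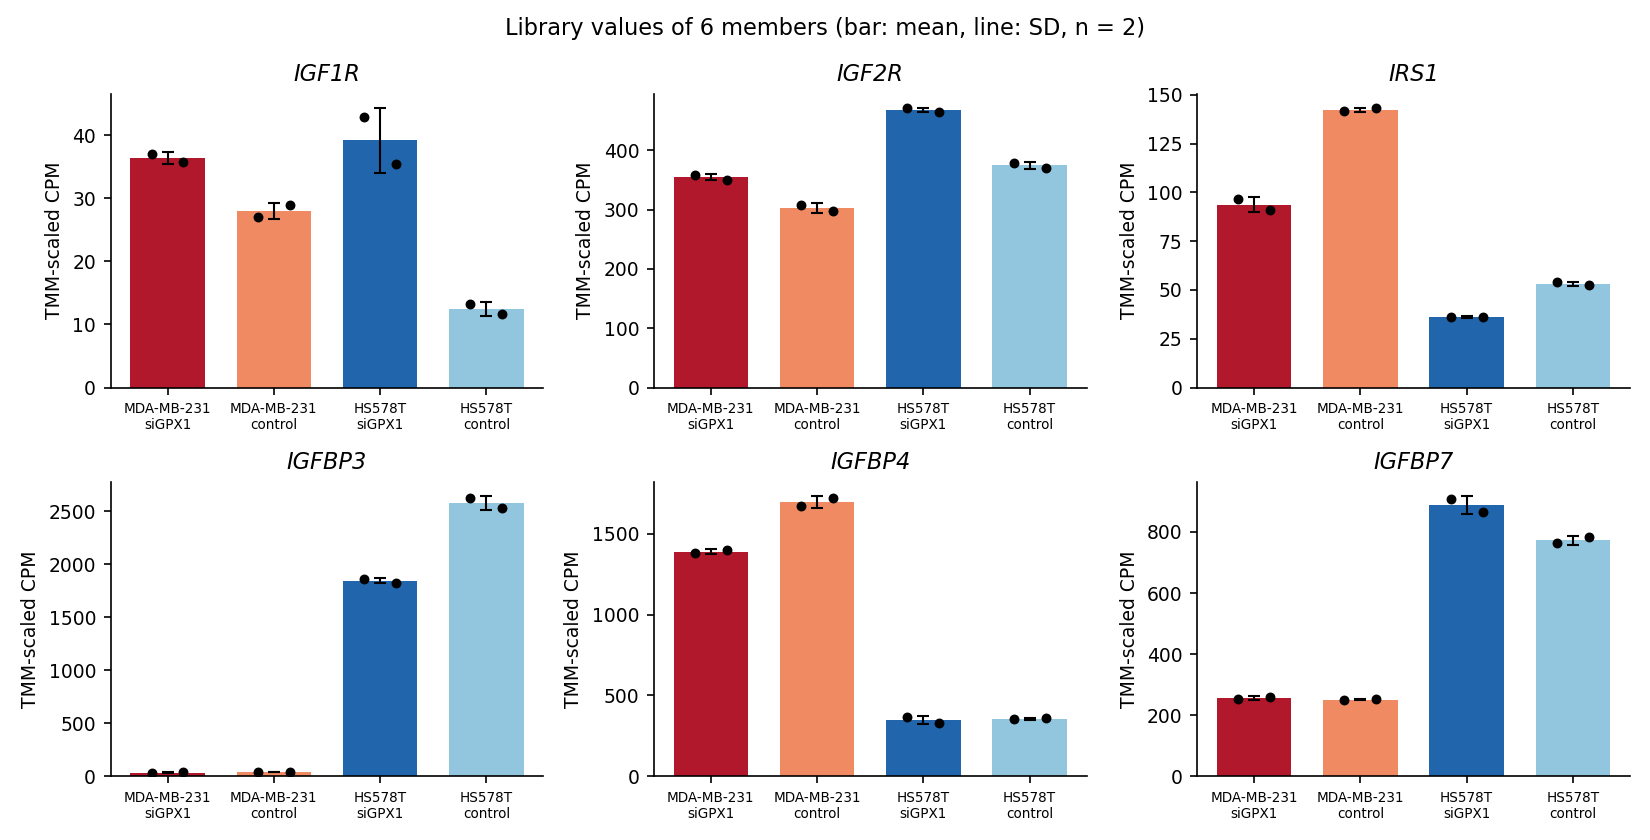
TMM-scaled CPM (vertical axis, from 0) of 6 members in each group, with bars for means, lines for SD and points for the 2 libraries. IGF1R rises to about the same height in both siGPX1 groups, IRS1 is lower in siGPX1 of each line, and IGFBP3 and IGFBP4 are each high in 1 line.

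Among the binding proteins, IGFBP3, the main carrier of IGF in blood plasma, was at 32.0 and 35.4 TPM in MDA-MB-231 siGPX1 and at 36.5 and 38.3 TPM in MDA-MB-231 control. In HS578T it was at 1687 and 1634 TPM in siGPX1 and at 2457 and 2357 TPM in control. The siGPX1 libraries were below the controls in both lines, by a small margin in MDA-MB-231. In MDA-MB-231 the log2 change of -0.16 ± 0.07 did not pass (adjusted p = 0.0589, edgeR), but it did with limma on log2(TPM + 1) (adjusted p = 0.0488). With HS578T siGPX1 replicate 1 or 2 left out of the fit, that change was again -0.16 but was called. It did not pass under 14 of the 17 alternative settings, and across all of them it spanned -0.19 to -0.036. IGFBP3 averaged 1845 ± 25.5 CPM in HS578T siGPX1 and 2578 ± 66.4 CPM in control (SD, n = 2 each), a log2 change of -0.48 ± 0.04 (adjusted p = 2.32e-08, edgeR). The MDA-MB-231 change minus the HS578T change was 0.32 ± 0.08 (adjusted p = 0.00793, edgeR).

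IGFBP4, which holds IGF away from the receptor until PAPPA cuts it, was at 1670 and 1692 TPM in MDA-MB-231 siGPX1 and at 2022 and 2064 TPM in control. The log2 change in MDA-MB-231 was -0.29 ± 0.04 (adjusted p = 3.29e-05, edgeR), with both siGPX1 libraries below both controls. In HS578T it was at 387 and 344 TPM in siGPX1 and at 386 and 393 TPM in control, which overlap, and its log2 change of -0.04 ± 0.04 did not pass (adjusted p = 0.491, edgeR). Without HS578T siGPX1 replicate 1, the higher of that pair, the log2 change was -0.13, and without replicate 2 it was 0.027. Its sign in HS578T thus depended on which library was left out. The interaction of IGFBP4 was -0.25 ± 0.06 (adjusted p = 0.0106, edgeR), and it was lost without any 1 of the 4 MDA-MB-231 libraries (adjusted p of 0.134 to 0.285) or without HS578T control replicate 1 (0.0601).

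IGFBP7, a secreted protein of vessels and matrix, was at 621 and 639 TPM in MDA-MB-231 siGPX1 and at 611 and 613 TPM in control, a log2 change of 0.04 ± 0.04 that did not pass (adjusted p = 0.501, edgeR). In HS578T it was at 1956 and 1844 TPM in siGPX1 and at 1699 and 1732 TPM in control. Its log2 change in HS578T was 0.20 ± 0.03 (adjusted p = 0.000172, edgeR), with both siGPX1 libraries above both controls. The difference between the lines was -0.17 ± 0.05 (adjusted p = 0.0383, edgeR); it failed without any 1 of 7 of the 8 libraries, all but HS578T siGPX1 replicate 2 (adjusted p of 0.0643 to 0.727).

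IGFBP6, which prefers IGF2 over IGF1, was at 148 and 151 TPM in MDA-MB-231 siGPX1 and at 150 and 155 TPM in control, which overlap (log2 change -0.04 ± 0.06, adjusted p = 0.636, edgeR). In HS578T it was at 66.7 and 64.1 TPM in siGPX1 and at 57.4 and 59.8 TPM in control, a log2 change of 0.21 ± 0.08 (adjusted p = 0.0284, edgeR). That call was lost when any 1 of the 8 libraries was left out (adjusted p of 0.0586 to 0.172), with DESeq2 (0.216), with at least 5 CPM in 2 libraries (0.0825) and with HS578T fitted alone (0.127).

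IGFBP5, a matrix-bound binding protein, had 0 counts in all 4 MDA-MB-231 libraries, with 38 and 33 estimated counts in HS578T siGPX1 and 53 and 39 in HS578T control. The HS578T groups did not separate beyond their spread on the CPM scale (log2 change -0.26 ± 0.26, adjusted p = 0.457, edgeR), and their CPM ranges overlap. IGFBP2 had 3 and 3 estimated counts in MDA-MB-231 siGPX1, 0 and 1 in MDA-MB-231 control, 0 and 1 in HS578T siGPX1 and 0 and 0 in HS578T control. With no filter its adjusted p by edgeR was 0.255 in MDA-MB-231 and 0.526 in HS578T, which leaves any difference undetectable at this depth.

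The 6 binding proteins together summed to 2471 and 2518 TPM in MDA-MB-231 siGPX1 and 2819 and 2870 TPM in control. The sums were 4098 and 3887 TPM in HS578T siGPX1 and 4601 and 4543 TPM in control. Both siGPX1 sums were below both controls in each line, which is a description of summed TPM with no test. The mix was unlike in the lines: IGFBP4 made up 67.6 and 67.2% of the sum in MDA-MB-231 siGPX1 and 71.7 and 71.9% in control, but 8.39 to 9.44% in HS578T. IGFBP3 made up 41.2 and 42.0% in HS578T siGPX1 and 53.4 and 51.9% in control, while IGFBP7 made up 47.7 and 47.4% in siGPX1 and 36.9 and 38.1% in control. IGFBP7 thus stood above IGFBP3 in TPM in both HS578T siGPX1 libraries and below it in both controls.

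**Figure D3:**
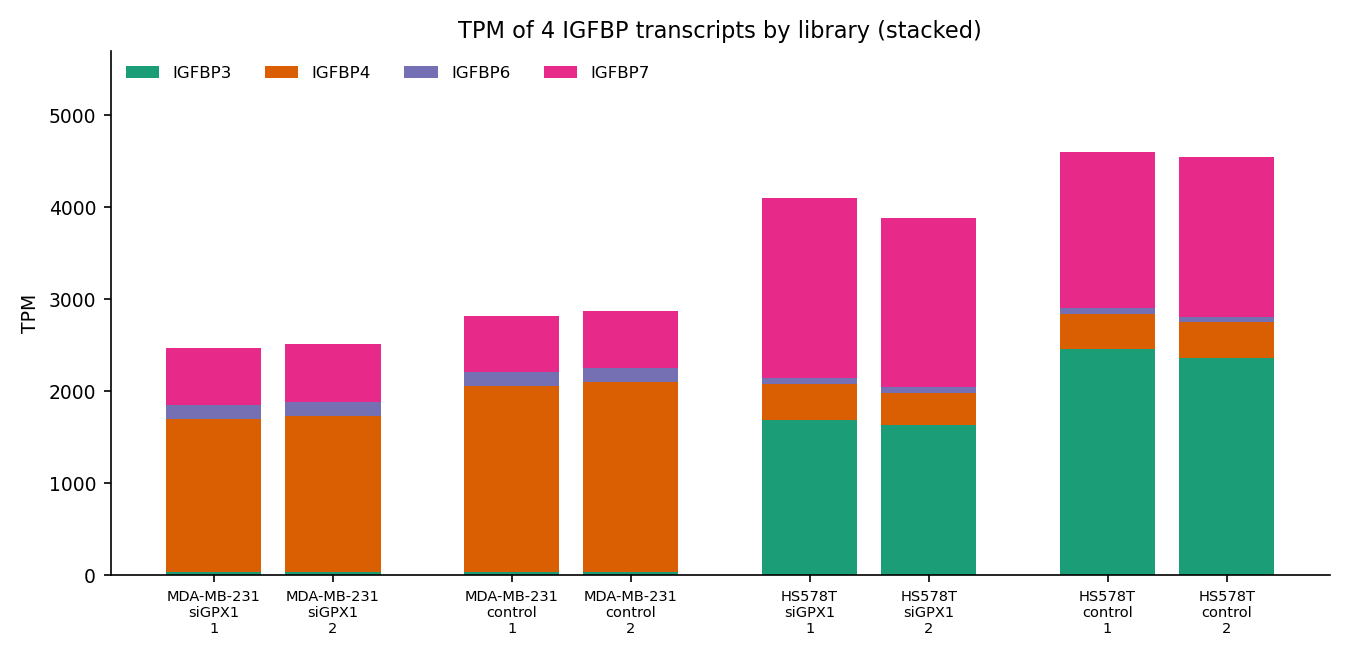
TPM (vertical axis, from 0) of 4 binding protein transcripts stacked for each of the 8 libraries, without IGFBP2 and IGFBP5, which are too low to see. IGFBP4 fills most of each MDA-MB-231 bar and IGFBP3 and IGFBP7 most of each HS578T bar, with less IGFBP3 in HS578T siGPX1.

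In control cells the lines differed for each of the 8 tested members. Control MDA-MB-231 was higher than control HS578T for 4 of them and lower for 4, where 43.0% of all tested genes were higher and 38.6% lower, so a difference between the lines was common to most genes. IGFBP3 was 70.6-fold lower in control MDA-MB-231 (log2 difference -6.14 ± 0.05, adjusted p = 1.82e-20, edgeR). IGFBP7 was 3.09-fold lower, IGFBP5 was at least 35.9-fold lower with 3 counts over the MDA-MB-231 group as the limit, and IGF2R was lower by a log2 difference of -0.31 ± 0.04. IGFBP4 was 4.77-fold, IRS1 2.67-fold, IGFBP6 2.36-fold and IGF1R 2.25-fold higher in control MDA-MB-231. The median log2 difference of the members was 0.43, beside 0.05 over all tested genes. These contrasts share their control libraries with the depletion comparisons.

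By TPM, the order in MDA-MB-231 control was IGFBP4, IGFBP7, IGFBP6, IGF2R, IRS1, IGFBP3 and IGF1R, and in siGPX1 IGFBP3 stood above IRS1. In HS578T control the order was IGFBP3, IGFBP7, IGFBP4, IGF2R, IGFBP6, IRS1, IGF1R and IGFBP5, and in siGPX1 IGFBP7 came first. The library ranges of neighbours in these orders did not overlap. IGF2 and IGFBP2 were last in each group apart from IGFBP5 in MDA-MB-231, and the order among genes this low cannot be read.

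**Figure D4:**
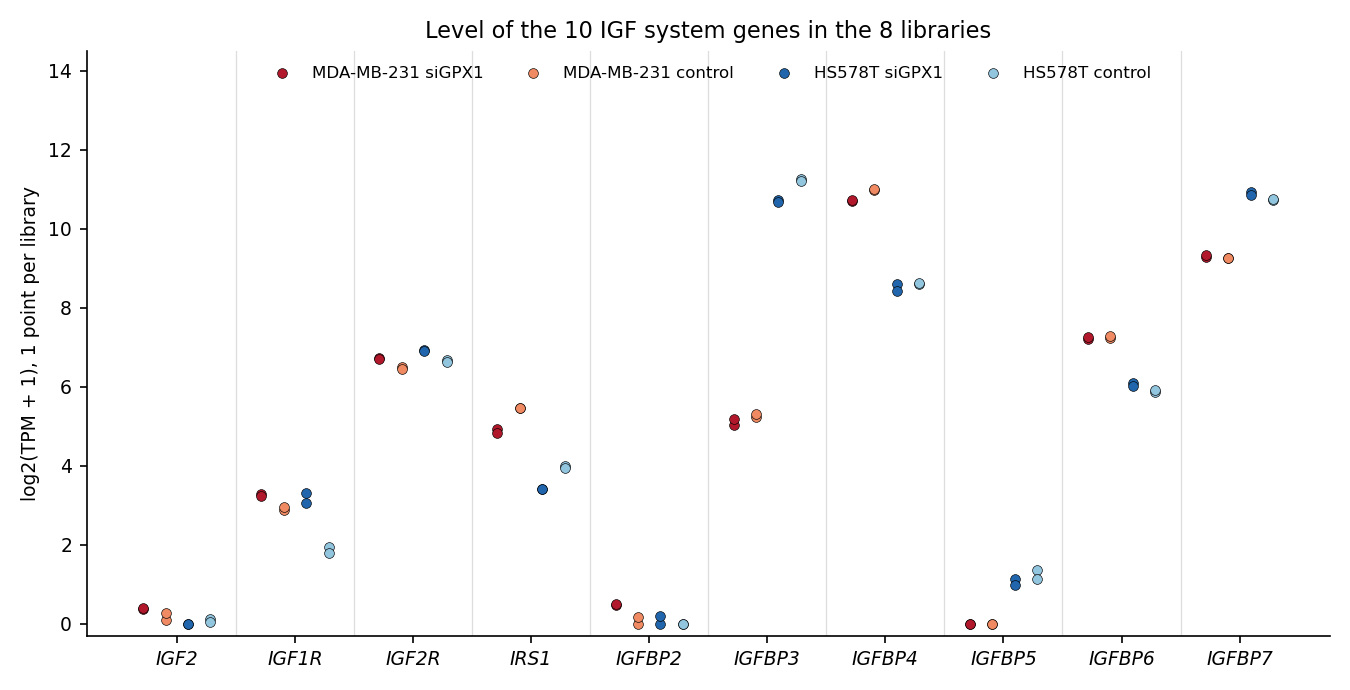
Level on a log2(TPM + 1) scale (vertical axis) of the 10 genes, with 1 point per library coloured by group. IGFBP3, IGFBP4 and IGFBP7 reach the top of the scale in 1 or both lines, IGF2 and IGFBP2 stay near 0 in all 8 libraries, and IGFBP5 is at 0 in MDA-MB-231.

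For the interaction, the MDA-MB-231 change minus the HS578T change, 4 of the 7 members with counts in both lines passed, IGFBP3 higher and IGF1R, IGFBP4 and IGFBP7 lower, where 6.32% of all tested genes were called higher and 10.7% lower. IGF1R and IGFBP3 passed under each of the 16 alternative settings run for the interaction, while IGFBP4 missed in 8 and IGFBP7 in 14. The 3 members called lower became 1 without any 1 of the 4 MDA-MB-231 libraries or without HS578T control replicate 1. The members' median was -0.17, beside -0.06 over all tested genes.

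RNA from bulk cells cannot separate fewer cells of a kind from less RNA per cell, and other transcripts moved with the members. The summed epithelial marker level was 2747 and 2817 TPM in MDA-MB-231 siGPX1 and 1761 and 1741 TPM in control, and 982 and 1079 TPM in HS578T siGPX1 and 384 and 388 TPM in control. The keratins KRT8, KRT18 and KRT19 made up most of it in MDA-MB-231 and KRT18 in HS578T, and 4 to 5 of 7 epithelial markers reached 1 TPM in MDA-MB-231 and 3 of 7 in HS578T. The summed mesenchymal and fibroblast marker level was 3092 and 3060 TPM in MDA-MB-231 siGPX1 and 2373 and 2423 TPM in control. In HS578T it was 29021 and 25851 TPM in siGPX1 and 22900 and 22636 TPM in control. VIM made up most of it in MDA-MB-231, and VIM, FN1 and COL1A1 in HS578T. Its members did not all move alike. In HS578T, THY1 was at 394 and 368 TPM in siGPX1 and 937 and 954 TPM in control. DCN was at 332 and 307 TPM in HS578T siGPX1 and 107 and 102 TPM in control. The leukocyte markers summed to 174 and 179 TPM in MDA-MB-231 siGPX1 and 171 and 165 TPM in control, and to 70.7 and 75.9 TPM in HS578T siGPX1 and 101 and 99.4 TPM in control. CD68 made up most of each leukocyte sum. The part of these shifts in the IGF gene changes was not tested.

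The rest of the pathway was described with 5 further lists holding 60 tested genes. In MDA-MB-231 siGPX1, 16 of the 59 with counts there rose, 18 fell and 25 did not pass, where 20.7% of all tested genes were higher and 21.9% lower. In HS578T siGPX1, 21 of 58 rose, 15 fell and 22 did not pass, where 28.6% of all tested genes were higher and 22.1% lower. Each list's counts below are set against these same shares, and each list's median log2 change against the 0.00 in MDA-MB-231 and 0.04 in HS578T of all tested genes.

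Of 9 tested genes for other secreted factors and receptors, 8 had counts in each line, without PAPPA2 in MDA-MB-231 and INSR in HS578T. In MDA-MB-231, 3 of the 8 rose and 4 fell, with a median log2 change of -0.28 (all tested genes 20.7% higher, 21.9% lower, median 0.00). In HS578T, 5 of the 8 rose and 1 fell, with a median of 0.46 (all tested genes 28.6% higher, 22.1% lower, median 0.04). The 4 falling genes in MDA-MB-231 became 2 with DESeq2 and with limma on log2(TPM + 1) or log2(TPM + 0.1). The 3 rising genes there became 1 with limma on log2(TPM + 0.1). Fewer also fell without MDA-MB-231 control replicate 1, control replicate 2 or siGPX1 replicate 1. The falling gene in HS578T was lost without HS578T control replicate 2 or siGPX1 replicate 2, and 2 fell there with no filter on low counts. PAPPA, the protease that cuts IGFBP4, was at 2.09 and 3.28 CPM in MDA-MB-231 siGPX1 and 3.95 and 3.95 CPM in control. That log2 change of -0.56 ± 0.20 passed (adjusted p = 0.0361, edgeR) but not with DESeq2 (0.0516), limma-voom (0.0765), limma on log2(TPM + 1) or log2(TPM + 0.1) (0.103 and 0.0582), nor without MDA-MB-231 control replicate 1 or 2 or siGPX1 replicate 1 (0.135, 0.139 and 0.54). In HS578T PAPPA was at 195 and 182 CPM in siGPX1 and 121 and 128 CPM in control (log2 change 0.60 ± 0.06, adjusted p = 4.41e-07, edgeR), a line in which IGFBP4 had no call. STC1, a stanniocalcin that inhibits PAPPA, fell in MDA-MB-231 by 0.21 ± 0.07 on the log2 scale (adjusted p = 0.03, edgeR), a call lost without any 1 of that line's 4 libraries (0.172 to 0.354) and under 5 other settings, among them DESeq2 (0.126) and at least 5 CPM in 2 libraries (0.0808). In HS578T STC1 was at 94.7 and 110.4 CPM in siGPX1 and at 61.2 and 49.0 CPM in control, with a log2 change of 0.90 ± 0.08 (adjusted p = 2.88e-07, edgeR). HTRA1, another protease that cuts IGFBPs, fell in MDA-MB-231 by 0.34 ± 0.06 on the log2 scale (adjusted p = 0.000184, edgeR). IGFBP1, the next gene to IGFBP3 on chromosome 7, had 232 and 235 estimated counts in MDA-MB-231 siGPX1, against 132 and 143 in control, and 51 and 59 in HS578T siGPX1, against 23 and 28 in control. Its log2 change was 0.85 ± 0.11 in MDA-MB-231 (adjusted p = 1.99e-05) and 1.22 ± 0.20 in HS578T (adjusted p = 0.00012, edgeR), the opposite direction to IGFBP3 in HS578T.

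Of 24 tested signalling genes, 5 rose and 9 fell in MDA-MB-231 (median log2 change -0.07, 0.00 over all tested genes). In HS578T, 6 of 23 rose and 10 fell (0.02, 0.04 over all tested genes), where 22.1% of all tested genes were lower. PIK3CB and PIK3R2, both for subunits of PI3 kinase, moved in opposite directions in each line. PIK3CB, a catalytic subunit, was at 18.5 and 20.7 CPM in MDA-MB-231 siGPX1 and 62.9 and 60.5 CPM in control, and at 18.1 and 13.9 CPM in HS578T siGPX1 and 60.0 and 59.3 CPM in control. Its log2 change was -1.65 ± 0.09 in MDA-MB-231 (adjusted p = 3.86e-10) and -1.90 ± 0.09 in HS578T (adjusted p = 1.5e-10, edgeR). PIK3R2, a regulatory subunit, was at 129 and 136 CPM in MDA-MB-231 siGPX1 and 68.8 and 73.8 CPM in control, and at 111 and 107 CPM in HS578T siGPX1 and 39.1 and 41.5 CPM in control. Its log2 change was 0.89 ± 0.05 in MDA-MB-231 (adjusted p = 1.59e-09) and 1.44 ± 0.06 in HS578T (adjusted p = 1.94e-11, edgeR). In MDA-MB-231 the Ras exchange factor SOS1 fell by 0.82 and the transcription factor FOXO3 rose by 0.71 on the log2 scale, and in HS578T the S6 kinase RPS6KB1 rose by 0.48. IRS2, the close relative of IRS1, had 16.6 and 16.1 CPM in MDA-MB-231 siGPX1, against 24.9 and 23.5 CPM in control, and 0 in all HS578T libraries. IRS2 is named after its values were seen.

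Of 12 tested receptor adaptors and inhibitors, 3 rose and 4 fell in MDA-MB-231 (median log2 change -0.12, 0.00 over all tested genes), and 6 rose and 2 fell in HS578T (0.31, 0.04 over all tested genes), where 28.6% of all tested genes were higher. The 2 falling genes in HS578T became 1 with DESeq2, limma-voom, the replicate block or a crossed block in HS578T. They became 4 with at least 5 CPM in 2 libraries. The number also moved without HS578T control replicate 1 or without any 1 of the 4 MDA-MB-231 libraries. SOCS3, which blocks cytokine and IRS signalling, was at 30.3 and 32.4 CPM in MDA-MB-231 siGPX1 and at 34.0 and 35.4 CPM in control, with no call (adjusted p = 0.317, edgeR). In HS578T SOCS3 was at 107 and 139 CPM in siGPX1 and at 38.5 and 40.1 CPM in control (log2 change 1.65 ± 0.10, adjusted p = 1.46e-09, edgeR). PTPN1, a phosphatase that dephosphorylates the insulin and IGF1 receptors, fell by 0.32 ± 0.04 in MDA-MB-231 and by 0.78 ± 0.04 in HS578T on the log2 scale (adjusted p = 4.09e-06 and 8.35e-10, edgeR). The adaptor SH2B1 fell by 0.60 in MDA-MB-231 and by 0.22 in HS578T on the log2 scale, where the HS578T call is near the threshold (adjusted p = 0.0498, edgeR) and did not hold without HS578T control replicate 1 (0.0747), control replicate 2 (0.203) or siGPX1 replicate 2 (0.432), with the replicate block (0.0561), a crossed block in HS578T (0.0511), limma-voom (0.0506) or DESeq2 (0.176). SOCS1 and the ubiquitin ligase NEDD4 rose by 0.79 and 0.39 in MDA-MB-231, and the adaptor GRB10 rose by 0.27 in HS578T, on the log2 scale.

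Of 4 tested genes for RNA partners and neighbours of IGF2, 1 rose in each line and 0 fell, with a median log2 change of 0.08 in MDA-MB-231 and 0.44 in HS578T, beside 0.00 and 0.04 over all tested genes. IGF2BP3 rose by 0.39 ± 0.07 in MDA-MB-231 (adjusted p = 0.000196) and IGF2BP2 by 0.24 ± 0.05 in HS578T (adjusted p = 0.00192, edgeR). The imprinted RNA H19 stayed at or below 1.38 CPM in every library, and IGF2BP1 at or below 1.36 CPM. Neither was called in HS578T (adjusted p = 0.184 and 0.379, edgeR). The HS578T median of these 4 genes thus rests partly on genes near the floor. Of 11 tested genes of mannose 6-phosphate sorting, the route that IGF2R serves, 4 rose and 1 fell in MDA-MB-231 (median log2 change -0.08, 0.00 over all tested genes), and 3 rose and 2 fell in HS578T (-0.03, 0.04 over all tested genes), where 20.7% and 28.6% of all tested genes were higher. M6PR, the smaller mannose 6-phosphate receptor, was at 109 and 110.5 CPM in MDA-MB-231 siGPX1 and 153 and 148 CPM in control, and at 72.1 and 77.7 CPM in HS578T siGPX1 and 105 and 106 CPM in control. Its log2 change was -0.46 ± 0.04 in MDA-MB-231 (adjusted p = 4.85e-07) and -0.49 ± 0.05 in HS578T (adjusted p = 5.05e-07, edgeR), opposite in sign to IGF2R. NAGPA, the enzyme that uncovers the mannose 6-phosphate tag, and GGA2, a sorting adaptor, rose by 0.54 and 0.36 in MDA-MB-231 and by 0.59 and 0.36 in HS578T on the log2 scale, and the sorting receptor SORT1 fell by 0.29 in HS578T.

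**Figure D5:**
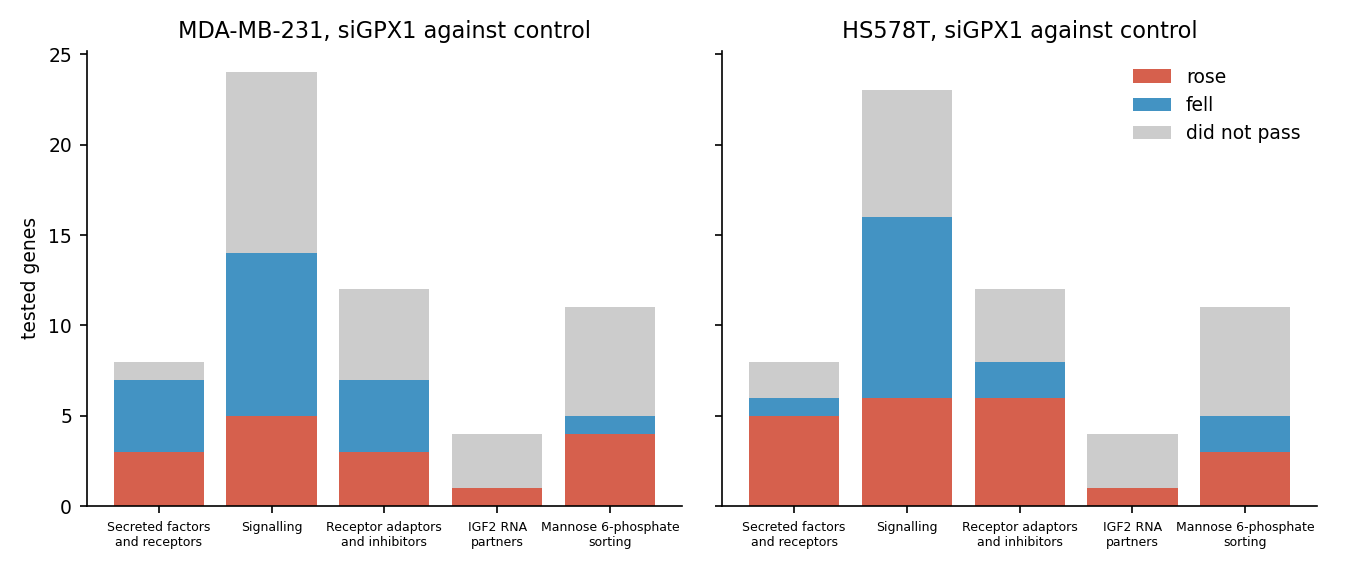
The number of tested genes (vertical axis, from 0) of each pathway list that rose, fell or did not pass in MDA-MB-231 (left) and HS578T (right), siGPX1 against control. The receptor adaptors and inhibitors had 3 rising genes in MDA-MB-231 and 6 in HS578T, and signalling had more falling than rising genes in both lines.

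Across the 8 libraries the genes whose log2 CPM was most like that of IGF1R, among 11294 genes averaging at least 5 CPM, were NFE2L2 (Pearson r = 0.990), HIF1A-AS2 (0.987) and RUNX2 (0.985). NFE2L2, which encodes the antioxidant regulator NRF2, was at 188 and 186 CPM in MDA-MB-231 siGPX1 and 177 and 174 CPM in control, and at 203 and 198 CPM in HS578T siGPX1 and 137 and 131 CPM in control. HIF1A-AS2 overlaps HIF1A on the other strand, and whether the counting used strand is not given in the sources used here, so its reads may be shared. Those most like IRS1 were TTL, a tubulin tyrosine ligase (r = 0.999), SLC37A2 (0.999) and MYO19 (0.998). These r values describe 8 libraries in 4 groups of 2 libraries that differ by line and depletion, and carry no test.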

How the data were processed

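The deposited files give 1 table per library with, per the file headers, an expected count, TPM, FPKM and transcript lengths for each gene symbol. The submitters' processing notes name FastQC, RSEM 1.2.12 and build hg19; of the aligner and any trimming, neither is given in the sources used. The authors' expected counts are RSEM estimates in which reads shared by several genes are divided among them, so near-identical copies are uncertain; 94.7 to 94.9% of the detected values were whole within 1e-09, and all were rounded. TPM and FPKM, as deposited by the authors, scale these by effective length and library. TPM was used for levels, FPKM for the order as an alternative, and lengths were not used.

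Groups came from sample titles. A genotype label calls the depleted samples knockouts, and the source label counts upward within a line while the cell line label does not; the cell line label was used. With edgeR 4.0.16 (R 4.3.3), filterByExpr by group left 14249 genes, scaled by TMM and fitted over the 8 libraries with each group's mean (residual degrees of freedom 4, common biological coefficient of variation 0.0342). The quasi-likelihood test was adjusted by Benjamini-Hochberg over all tested genes and called under 0.05. Standard errors are the log2 change over the square root of F. The steps were also run on counts simulated with the fit's own estimated spread, which does not test a spread that differs between groups.

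The members and lists were chosen with earlier results of these data known. All members were named; from each list, up to 2 rising and 2 falling genes by smallest p with at least 5 CPM in the line; IGFBP1 and PAPPA in the other line are given beside their named values, and SOCS3 likewise. A list gene that this rule picks is not reported here. INSR and IRS2 in HS578T and IGFBP5 and PAPPA2 in MDA-MB-231 had 0 counts, got no change and left that line's counts and medians. Gene neighbours came from RefSeq's gene table (GRCh38.p14), and 3′ UTRs from GENCODE 29 (GRCh38), joined by accession or symbol for sequence only. Alternatives were DESeq2 size factors, DESeq2 1.42.0, limma-voom (limma 3.58.1), no filter, at least 5 CPM in 2 libraries, each line alone, replicate number as a block, limma on log2(TPM + 1) and log2(TPM + 0.1), and each library left out.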

Additional observations from a re-analysis of the deposited data

Results flagged for a closer look

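For 14 of the members and list genes named, the change after depletion differed between the lines by the interaction test. This was edgeR's quasi-likelihood test at a Benjamini-Hochberg adjusted p under 0.05. Differences are given as the MDA-MB-231 change minus the HS578T change on the log2 scale. Over all tested genes, 6.32% were called higher and 10.7% lower in this test. Of the 57 list genes with counts in both lines, named or not, 9 were higher and 10 lower. The list genes among the 14 were named for a small p in a depletion comparison, so the 14 are not a rate. Among the members the differences were -1.27 for IGF1R, 0.32 for IGFBP3, -0.25 for IGFBP4 and -0.17 for IGFBP7. Among the secreted factors and proteases they were -1.11 for STC1, -1.16 for PAPPA and -0.30 for HTRA1. Among the signalling genes they were -0.54 for PIK3R2, 0.36 for FOXO3 and -0.38 for SOS1. Of the receptor inhibitors, SOCS3 differed by -1.79 and PTPN1 by 0.46. IGF2BP3 differed by 0.36 and the sorting receptor SORT1 by 0.21. Of the list genes, HTRA1 missed the threshold in 10 of 16 alternative settings, SOS1 in 6, and FOXO3, IGF2BP3 and SORT1 in 1 each. Apart from these, NFE2L2, HIF1A-AS2 and RUNX2, chosen for their likeness to IGF1R, also passed the interaction test, at -0.49, -0.60 and -0.88 (adjusted p = 1.97e-05, 1.24e-05 and 1.53e-05), but they were chosen on these same values.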

How the results depend on the processing

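Over 1245 combinations of a reported change and an alternative setting, 1149 kept their direction and side of the threshold, 77 lost the call, 4 gained it and 15 changed sign, none of which passed. With at least 5 CPM in 2 libraries the log2 change of IGFBP6 in MDA-MB-231 was 0.014, and the interactions of IGF2R and IRS1 were 0.0097 and 0.059; that of IRS1 was 0.014 with DESeq2 size factors and with DESeq2 and 0.012 with limma on log2(TPM + 0.1). With 1 library left out, IGFBP4 in HS578T spanned -0.13 to 0.027, IGFBP6 in MDA-MB-231 -0.034 to 0.045, and the interactions of IGF2R -0.097 to 0.029 and of IRS1 -0.052 to 0.093. IRS1, IGF2R and IGFBP4 in MDA-MB-231 and IGF1R, IGF2R, IRS1, IGFBP3 and IGFBP7 in HS578T kept their calls in every setting run; the log2 change of IGF1R spanned 0.34 to 0.48 in MDA-MB-231 and 1.31 to 1.78 in HS578T. With limma on log2(TPM + 0.1), 1 member was called higher in MDA-MB-231, since IGF1R missed (adjusted p = 0.063). In HS578T, members called higher were 4 but 3 with DESeq2, at least 5 CPM in 2 libraries or HS578T alone, where IGFBP6 missed. DESeq2 called 1938 genes lower in MDA-MB-231, against 3116, and leaving out 1 library gave 2033 to 3324, with 2033 to 2076 when it was MDA-MB-231 control replicate 2 or either siGPX1 replicate of that line. For the interaction, genes called higher were 900 but 1684 with at least 5 CPM in 2 libraries. Members called lower were 3 but 1 with that filter and with limma on log2(TPM + 1) or log2(TPM + 0.1), and 1 to 3 with 1 library left out. Genes called lower were 1528, but 1000 with DESeq2 size factors, 543 with DESeq2, 797 with the stricter filter, 994 and 804 with limma at the pseudocounts 1 and 0.1, and 513 to 1573 with 1 library left out, which was 513 to 549 for an MDA-MB-231 library and 968 and 991 for an HS578T control. The cause was not tested. The median change of all genes moved by over 0.1 for the interaction with the stricter filter (0.10) and without MDA-MB-231 control replicate 2 (0.10), and for the controls with limma on TPM (0.14 and 0.12). Replicate numbers shared no stated source; deviations of same-numbered libraries correlated at 0.13 in MDA-MB-231 and -0.10 in HS578T. With the replicate block, 2920 genes were higher and 3112 lower in MDA-MB-231, 4078 and 3148 in HS578T, and in the interaction 904 and 1507, where IGFBP7 missed (adjusted p = 0.0503). A crossed pairing in HS578T, chosen after seeing the data, gave 4020 higher and 3110 lower. Counts of 0 to 8 for IGF2 and IGFBP2 limit what depth can show.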
